A study of Mus musculus with 44 samples.

Results

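Apoe knock-out microglia were compared with APOE33 microglia in 4 and 6 RNA-seq libraries, 10 of the 44 libraries of a mouse series. The libraries were chosen by cell type and genotype as their names give them. Primary mouse microglia were purified, grown untreated in media made for human microglia and astrocytes, and their total RNA was sequenced as read pairs. The labels give the genotypes by name only: in common use APOE33 names mice whose Apoe gene is replaced by human APOE3 on both chromosomes and APOE44 the same for human APOE4, and Apoe knock-out names mice with that gene inactivated. The knock-out libraries are 1 female and 3 males, the APOE33 libraries 4 females and 2 males, and all 10 carry the tag of batch 1. The sources used here give no age, no method for the knock-out and no word on whether each replicate came from its own animal or culture. The p-values below therefore speak of library-to-library spread, which may be technical. Values for 6 APOE44 microglia libraries (batch 1), 6 wild-type microglia libraries (batch 2) and 10 astrocyte libraries of the knock-out and APOE33 genotypes are given beside the result where they bear on it. Genotype and batch cannot be told apart where wild type is concerned.

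Apolipoprotein E is the main lipid carrier of the brain. It is loaded with cholesterol and phospholipid by the transporters Abca1 and Abcg1, secreted, and taken up again through lipoprotein receptors on the cell surface. A cell's sterol supply is read in the endoplasmic reticulum: when sterol is scarce, Scap carries the factor Srebp2 (gene Srebf2) to the Golgi for cleavage, and the freed fragment switches on the enzymes of cholesterol synthesis and of lipoprotein uptake, whereas oxysterols activate the liver X receptors, which switch on efflux genes. Microglia, the resident macrophages of the brain, hold a homeostatic expression programme (Tmem119, P2ry12, Sall1) that weakens in culture, and take on other programmes around damage, plaques or lipid debris.

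The knock-out label was checked on Apoe first. Reads assigned to mouse Apoe (ENSMUSG00000002985.16, GRCm38 chromosome 7, 19696109 to 19699188, protein coding) came to 14.7, 7.84, 6.24 and 23.2 CPM (counts per 1000000 of the scaled library total) in knock-out replicates 1 to 4 and to 37.8 at the lowest, 42.2 at the median and 68.9 at the highest of the APOE33 libraries. All 4 knock-out libraries lay below all 6 APOE33 libraries, and wild-type microglia, which carry the intact mouse gene, had 37893 to 50842 CPM. The difference between knock-out and APOE33 was -1.85 (log2, SE 0.32, adjusted p = 0.00111); human APOE is not a row of the mouse gene table, so the human transcript was not measured here. Library totals were 98006360 to 106646895 counts in knock-out and 88991799 to 120505499 in APOE33, and RNA integrity numbers were 9.6 to 9.9 in both groups. The summed level of 20 microglia and macrophage markers was 34848 to 37103 CPM in knock-out and 35013 to 41830 in APOE33, with none of them at 0. Markers of other brain cells were low but not absent: 18 astrocyte markers summed to 651 to 772 CPM in knock-out and 998 to 1346 in APOE33, most of it the glutamine synthetase gene Glul, which fell (-0.87, SE 0.079, adjusted p = 4.36e-06). Of the 16 astrocyte markers measured, 2 rose (12.5%) and only Glul fell (6.25%), beside 10.9% and 11.9% of all genes tested. Differences were positive in 9 and negative in 7, from -2.36 to 1.93. The sum of 17 oligodendrocyte-lineage markers was 183 to 214 CPM against 206 to 296, with Ermn, Mog, Gpr17 and Opalin at 0 in all knock-out libraries and Opalin in all APOE33 libraries. Of 15 measured, 7 fell (46.7%) and 0 rose, beside 11.9% and 10.9% of all genes tested. Differences were negative in 14 of the 15. The count of falls was 3 without knock-out replicate 1, 2 in males alone and 4 with the replicate block. With knock-out and APOE33 libraries only, 1 of 11 fell. The sum of 14 neuron markers stayed under 2 CPM except in APOE33 replicate 2, which had 8.94 CPM and stood apart from the other libraries on the first principal component. The part of these other cells in the results was not tested.

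Knock-out and APOE33 microglia differed widely, mostly by small amounts. Of 17143 genes tested with edgeR's quasi-likelihood test, 3899 (22.7%) were called at a Benjamini-Hochberg adjusted p under 0.05: 1863 (10.9%) were higher in knock-out and 2036 (11.9%) lower. Differences over 2-fold made up 397 of the higher and 325 of the lower calls, and differences over 4-fold 92 and 98; 1191 higher and 1438 lower calls were under 1.5-fold. Every knock-out library lay above every APOE33 library in 1505 genes (8.78%) and below in 1594 (9.3%). Scaling to library totals alone, without the TMM factors, gave 1284 higher and 3014 lower calls, so the balance of small rises and falls rests on the scaling, and a restriction to males (3 knock-out and 2 APOE33 libraries, with 3 of APOE44 in the fit) left 1068 calls. Among gene types, 26.9% of protein-coding genes were called against 13.7% of lincRNA genes and 4.28% of processed pseudogenes. In the same 16-library fit, knock-out differed from APOE44 in 2327 genes upward (13.6%) and 2289 downward (13.4%), whereas APOE44 differed from APOE33 in 65 upward (0.379%) and 79 downward (0.461%); these comparisons share libraries and are given side by side only.

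**Figure D1:**
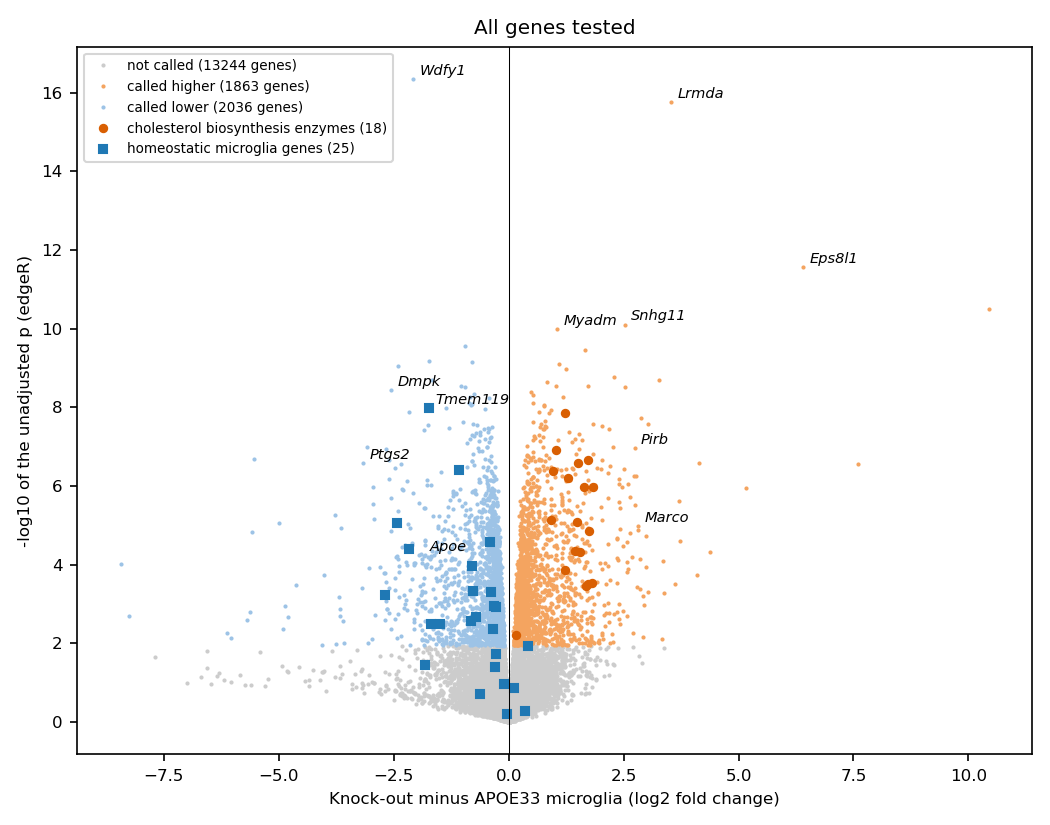
Each point is 1 of 17143 genes, with the log2 fold change of knock-out over APOE33 microglia on the x axis and -log10 of the unadjusted p on the y axis. Orange and blue dots are genes called higher (1863) and lower (2036); the large orange circles, cholesterol biosynthesis enzymes, all lie to the right of 0, and 22 of 25 homeostatic microglia genes (blue squares) lie to the left.

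The gene lists differed in how many of their members moved. The cholesterol enzymes had every member higher, glycolysis, lysosome, fatty acid and liver X receptor lists had more rises than falls, and the homeostatic, immediate early and chemokine lists had mostly falls. Counts below are read against the 10.9% and 11.9% of all genes called in each direction and against the median of all genes, -0.02 (log2).

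**Figure D2:**
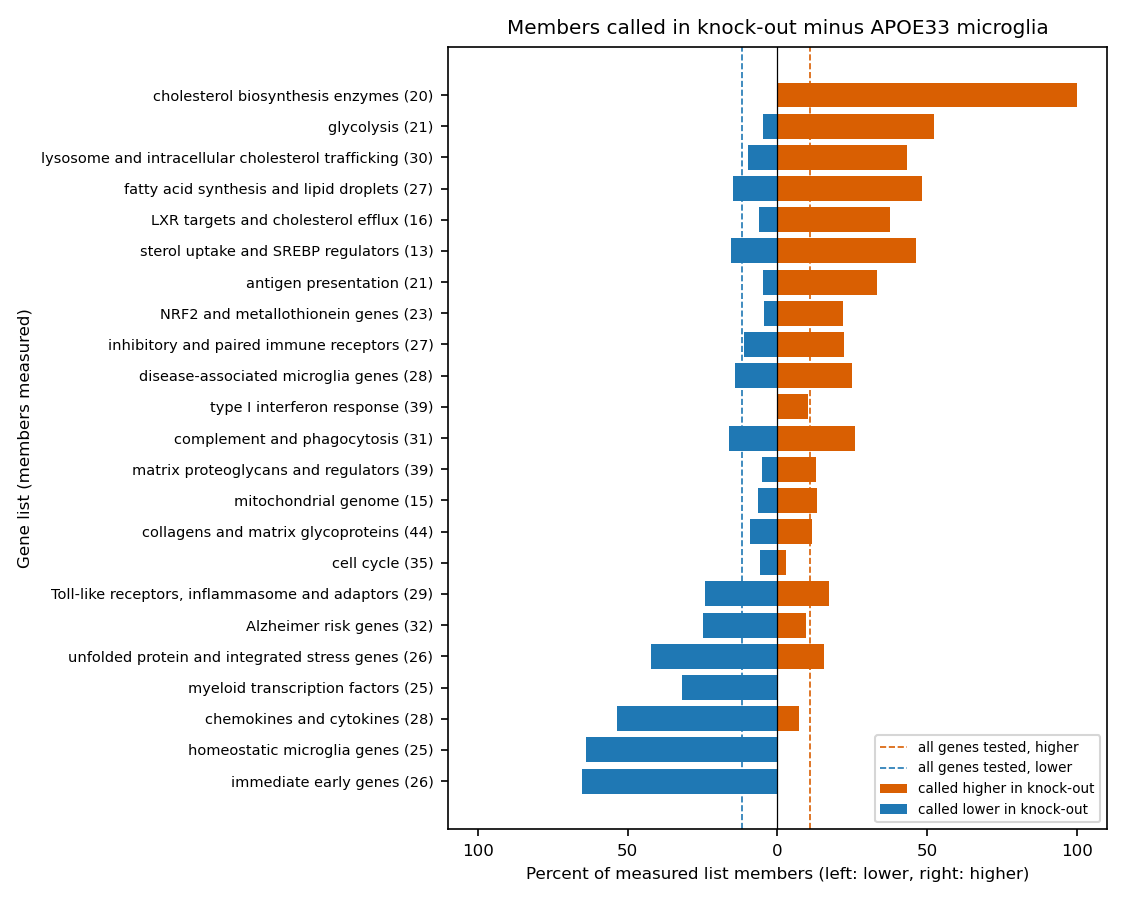
Bars give the percent of measured members of each gene list (number in brackets) called higher (orange, to the right) or lower (blue, to the left) in knock-out than in APOE33 microglia, and dashed lines give the same percent over all genes tested. The bar of the cholesterol biosynthesis enzymes reaches 100% to the right, and those of the immediate early and homeostatic genes reach 65.4% and 64% to the left.

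All 20 enzymes of cholesterol synthesis were higher in knock-out, with a median difference of 1.5 (log2). In each of the 20 genes, every knock-out library lay above every APOE33 library. Hmgcs1, which makes the precursor of mevalonate (ENSMUSG00000093930.2, chromosome 13, 119690379 to 119708260), was at 145, 118, 138 and 128 CPM in knock-out and at 37.1, 62 and 89.4 (lowest, median, highest) in APOE33. The lowest knock-out library stood clear of the highest APOE33 library; the difference was 1.23 (SE 0.23, adjusted p = 0.00203). Sqle, squalene epoxidase and the first oxygen-using step (ENSMUSG00000022351.14, chromosome 15, 59315077 to 59331192), was at 117, 88.9, 115 and 94.6 CPM against 14.5, 27.9 and 62.4. Its APOE33 libraries ranged widely, replicates 1 to 3 lying at 14.5, 20.2 and 18.3 and replicates 4 to 6 at 36.4, 62.4 and 35.7, all below the knock-out; the difference was 1.81 (SE 0.37, adjusted p = 0.00344).

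The same order held along the pathway. Among the mevalonate and isoprenoid enzymes, Mvd (mevalonate diphosphate decarboxylase) rose by 1.51 (SE 0.17, adjusted p = 3.26e-05), Idi1 (the isomerase of the isoprenoid unit) by 1.73 (SE 0.36, adjusted p = 0.00357) and Fdps (farnesyl diphosphate synthase) by 1.83 (SE 0.24, adjusted p = 8.03e-05). Lss, which closes the first sterol ring system, was at 89.2, 69.1, 84.1 and 68.1 CPM against 18.8, 22.8 and 36.5, a difference of 1.72 (SE 0.18, adjusted p = 2.99e-05). The post-lanosterol enzymes Cyp51, Msmo1, Nsdhl and Sc5d rose by 1.56, 1.44, 1.30 and 1.49. Tm7sf2, a sterol reductase, had the smallest adjusted p of the list, 5.6e-06, with a difference of 1.23 (SE 0.11). Ebp, the sterol isomerase, had the smallest difference, 0.17 (SE 0.055, adjusted p = 0.0319). It was not called without knock-out replicate 1, knock-out replicate 3 or APOE33 replicate 1 (adjusted p 0.0512 to 0.0801). Library totals only, no filter, knock-out and APOE33 libraries only, and males alone also left Ebp not called (differences 0.10, 0.18, 0.15 and 0.11). The count was 18 without knock-out replicate 1 and 19 or 20 without any other single library, and 17 in males alone.

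**Figure D3:**
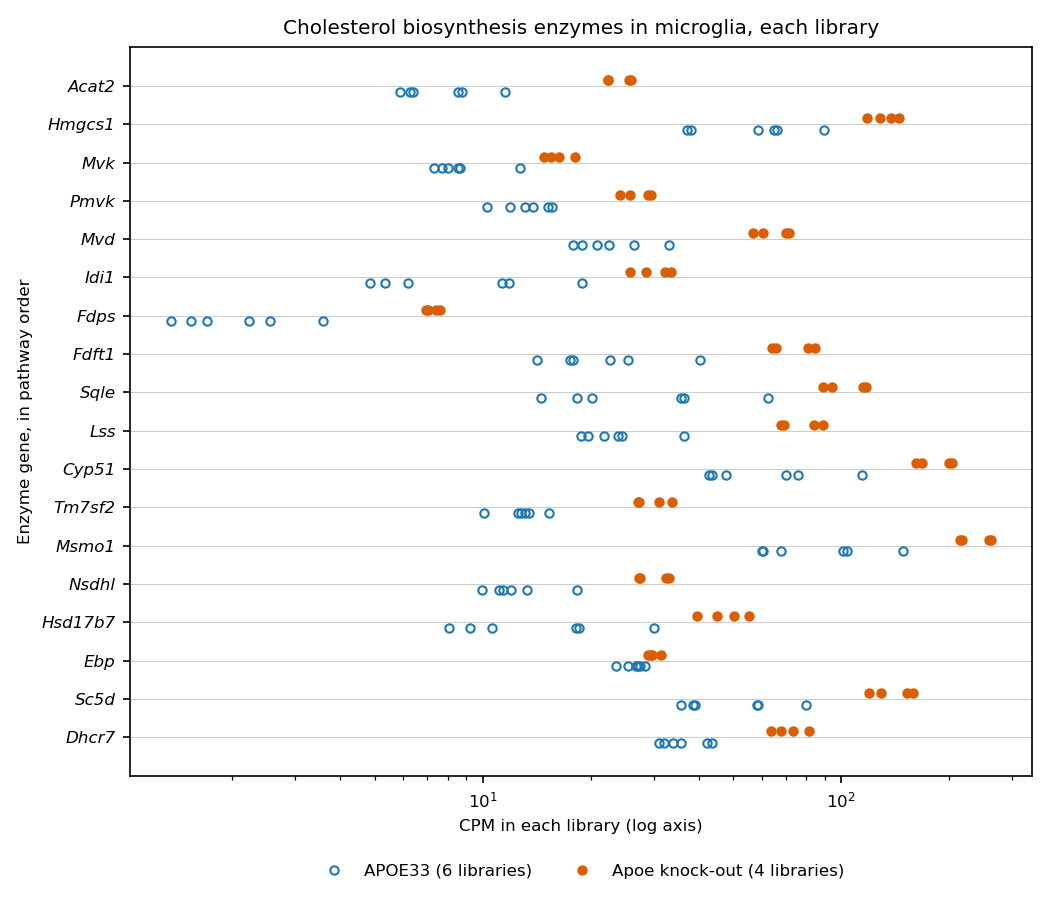
The CPM of 18 cholesterol biosynthesis enzymes is shown on a log axis, 1 row per gene in pathway order, with 4 filled circles for knock-out libraries and 6 open circles for APOE33 libraries. In every row all filled circles lie to the right of all open ones; the gap is narrowest in Ebp.

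Promoter sequences of 7 of these enzymes are printed because the members moved together. They are the 250 bases before the start of the gene on its own strand (RefSeq, GRCm38.p6), read 5′ to 3′; capitals mark CCAAT, the core bound by the factor NF-Y, on either strand (ATTGG where it lies on the other strand), and, in Hmgcs1, TCACNCCAC, a core of the sterol regulatory element to which Srebp proteins bind.
Hmgcs1, chr13:119690101-119690350, plus strand: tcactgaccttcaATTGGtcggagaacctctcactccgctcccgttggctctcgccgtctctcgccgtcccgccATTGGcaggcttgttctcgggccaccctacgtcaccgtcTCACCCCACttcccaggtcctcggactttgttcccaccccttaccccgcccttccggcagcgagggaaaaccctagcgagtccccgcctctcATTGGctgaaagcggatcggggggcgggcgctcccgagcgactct
Mvd, chr8:122443423-122443672, minus strand: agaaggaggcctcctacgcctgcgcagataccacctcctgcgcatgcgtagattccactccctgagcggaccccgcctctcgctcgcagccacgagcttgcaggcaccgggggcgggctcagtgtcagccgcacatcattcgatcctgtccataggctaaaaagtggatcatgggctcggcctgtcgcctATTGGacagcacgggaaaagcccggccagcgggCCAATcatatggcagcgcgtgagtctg
Idi1, chr13:8885356-8885605, plus strand: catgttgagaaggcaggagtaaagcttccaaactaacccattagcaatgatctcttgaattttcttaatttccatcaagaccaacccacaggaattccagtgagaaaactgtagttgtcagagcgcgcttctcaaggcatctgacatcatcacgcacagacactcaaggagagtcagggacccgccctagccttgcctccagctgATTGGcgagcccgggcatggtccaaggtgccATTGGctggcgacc
Lss, chr10:76531355-76531604, plus strand: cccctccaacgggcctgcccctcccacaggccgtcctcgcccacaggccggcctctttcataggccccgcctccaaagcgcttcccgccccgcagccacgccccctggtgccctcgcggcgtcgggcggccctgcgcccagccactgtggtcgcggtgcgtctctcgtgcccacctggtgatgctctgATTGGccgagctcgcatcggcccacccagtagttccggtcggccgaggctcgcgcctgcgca
Cyp51, chr5:4104698-4104947, minus strand: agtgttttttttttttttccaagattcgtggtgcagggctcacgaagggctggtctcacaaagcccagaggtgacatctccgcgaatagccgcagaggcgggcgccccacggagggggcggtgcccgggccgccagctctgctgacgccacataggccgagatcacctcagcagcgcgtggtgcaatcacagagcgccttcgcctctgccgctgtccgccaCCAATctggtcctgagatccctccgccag
Msmo1, chr8:64733579-64733828, minus strand: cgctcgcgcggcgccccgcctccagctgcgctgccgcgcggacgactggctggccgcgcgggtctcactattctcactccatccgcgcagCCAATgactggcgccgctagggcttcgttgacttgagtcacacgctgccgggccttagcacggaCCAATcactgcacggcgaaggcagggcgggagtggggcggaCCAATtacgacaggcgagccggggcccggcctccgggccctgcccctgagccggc
Nsdhl, chrX:72918271-72918520, plus strand: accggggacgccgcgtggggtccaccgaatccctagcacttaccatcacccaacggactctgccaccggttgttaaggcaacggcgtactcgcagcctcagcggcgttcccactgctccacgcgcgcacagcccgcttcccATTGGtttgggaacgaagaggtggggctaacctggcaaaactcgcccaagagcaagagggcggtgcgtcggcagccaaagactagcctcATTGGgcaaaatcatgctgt

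CCAAT stood in these windows 3 times in Hmgcs1 and Msmo1, 2 times in Mvd, Idi1 and Nsdhl and once in Lss and Cyp51. The site nearest the start began between 14 (Idi1) and 62 (Lss) bases upstream. Of the 20 enzymes, 15 had a window in the RefSeq table, and 14 of the 15 (93.3%) held CCAAT on either strand, beside 33.8% of all 32851 promoter windows and 40% of the windows of genes tested. TCACNCCAC was found in 1 of the 15, Hmgcs1, 137 bases upstream, and in 1.05% of all windows. A match describes letters in the window and was not read as a bound site.

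Sterol uptake and its regulators followed in part. Of 13 measured genes 6 rose and 2 fell, and the median was 0.34. Insig1, the sterol-sensing retention protein of the endoplasmic reticulum and itself an Srebp target, was at 300, 213, 249 and 239 CPM against 75.8, 90.5 and 139, a difference of 1.45 (SE 0.17, adjusted p = 4.77e-05). Srebf2 rose by 0.62 (SE 0.11, adjusted p = 0.00109), Scarb1, the high-density lipoprotein receptor, by 0.55 (SE 0.077, adjusted p = 0.00013) and Lrp8, an apolipoprotein E receptor, by 0.80 (SE 0.18, adjusted p = 0.00464). Mylip, a ubiquitin ligase and liver X receptor target, fell by 0.45 (SE 0.11, adjusted p = 0.00741), and Insig2 fell by 0.21 (SE 0.045, adjusted p = 0.00299). Srebf1, Scap, Mbtps1, Lrp1 and Vldlr were not called, with differences of 0.34, -0.095, 0.0069, 0.20 and 1.00, although Srebf1 was called higher without APOE33 replicate 3 (adjusted p = 0.00814).

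Genes of liver X receptors and cholesterol efflux split. Among the 16 measured, 6 rose and 1 fell (median 0.085), and 2 rose in males alone. The largest difference in the list was 2.85, equal to that of Apoc4, a gene close to Apoe. Abca1 was at 1315, 1556, 1312 and 1586 CPM in knock-out and at 1349, 1914 and 2270 in APOE33, and Abcg1 at 153, 167, 140 and 159 against 127, 207 and 275. The groups overlapped for both transporters, which were not called (differences -0.33 and -0.38, adjusted p 0.137 and 0.291), although Abca1 was called lower without APOE33 replicate 5 (adjusted p = 0.0489). Nr1h3, which encodes liver X receptor alpha, was at 21.8, 19.5, 21.8 and 27.5 CPM against 5.28, 6.44 and 11.5, and rose by 1.67 (SE 0.21, adjusted p = 0.000101). Smpdl3a, a phosphodiesterase of macrophages, rose by 1.07 (SE 0.11, adjusted p = 1.36e-05) and Soat1, which esterifies cholesterol for storage, by 0.41 (SE 0.07, adjusted p = 0.000686). Ch25h, which makes the Srebp-blocking oxysterol 25-hydroxycholesterol, was at 42.1, 40.9, 52.3 and 52.8 CPM against 74.0, 111 and 123. All knock-out libraries lay below all APOE33 libraries, and Ch25h fell by 1.22 (SE 0.15, adjusted p = 9.8e-05).

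Fatty acid and lysosomal genes had more rises than falls. In the list of fatty acid synthesis and lipid droplets, 13 of 27 rose and 4 fell (median 0.32), and 7 rose and 2 fell in males alone. The desaturase Fads1 was at 225, 251, 256 and 222 CPM against 135, 140 and 162, with no overlap (0.76, SE 0.07, adjusted p = 4.44e-06), and the desaturase Fads2 differed by 2.10 (adjusted p = 0.00153). Fasn (fatty acid synthase) rose by 0.58 (SE 0.11, adjusted p = 0.00141), Acly, which supplies acetyl-CoA, by 0.49 (SE 0.08, adjusted p = 0.000445) and Elovl5, an elongase, by 0.40 (SE 0.058, adjusted p = 0.000185). The carrier Fabp5 was at 1348, 737, 978 and 987 CPM against 326, 445 and 552, replicate 1 being the highest (1.28, SE 0.18, adjusted p = 0.000196). Cd36, the fatty acid and oxidised lipoprotein receptor, fell by 0.85 (SE 0.14, adjusted p = 0.000605). The lipid droplet coat gene Plin2 and lipoprotein lipase Lpl, with differences of -0.21 and 0.16, were not called.

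Among 30 genes of the lysosome and of cholesterol movement inside cells, 13 rose and 3 fell (median 0.19); 2 rose in males alone, and 1 to 3 fell when any 1 library was left out, with 1 without knock-out replicate 2 or 3 or APOE33 replicate 3. Npc1, which exports cholesterol from late endosomes, was at 523, 451, 485 and 494 CPM against 317, 354 and 384 and rose by 0.49 (SE 0.069, adjusted p = 0.000146). Lamp1, a membrane glycoprotein of lysosomes, rose by 0.42 (SE 0.072, adjusted p = 0.000649) and Atp6v0d2, a proton pump subunit, by 0.80 (SE 0.12, adjusted p = 0.000253). Gpnmb, a lysosomal glycoprotein of lipid-laden macrophages, was among the most abundant, at 16273, 7540, 10334 and 11037 CPM against 3546, 5768 and 6140. Replicate 1, the female, was far the highest; the difference was 1.15 (SE 0.21, adjusted p = 0.00119), and 0.87 without that library. The acid lipase Lipa and the cathepsins Ctsd and Ctsl were not called (0.20, 0.091 and -0.11).

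More glycolysis genes rose than fell. Of 21 genes 11 were higher and 1 lower, with a median of 0.23, and 3 were higher in males alone. Tpi1 was at 335, 286, 338 and 322 CPM against 176, 226 and 249 (0.54, SE 0.086, adjusted p = 0.000374), and Pgam1 at 192, 159, 176 and 175 against 97.4, 122 and 134 (0.56, SE 0.091, adjusted p = 0.000451). Aldoc, an aldolase otherwise known from astrocytes, rose by 1.68 (SE 0.19, adjusted p = 4.22e-05) and Ldha, the lactate-forming dehydrogenase, by 0.35 (SE 0.071, adjusted p = 0.00192). The glucose carrier Slc2a3 fell by 1.58 (SE 0.28, adjusted p = 0.000967), while Slc2a1 and Hk2 were not called (0.10 and -0.048).

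Most homeostatic microglia genes were lower in knock-out. Of 25 genes 16 fell, the median was -0.62, and in 14 every knock-out library lay below every APOE33 library; 4 fell in males alone. Tmem119, a membrane protein used to tell microglia from other macrophages (ENSMUSG00000054675.5, chromosome 5, 113793729 to 113800516), was at 104, 169, 121 and 133 CPM in knock-out and at 323, 413 and 514 in APOE33. The groups were far apart, and the difference was -1.73 (SE 0.15, adjusted p = 4.94e-06). Sall1, a transcription factor that holds microglial identity (ENSMUSG00000031665.7, chromosome 8, 89027235 to 89044162), was at 11.5, 4.48, 5.10 and 12 CPM against 28.4, 42.6 and 56.9. Replicates 2 and 3 were the lowest and no value overlapped (-2.42, SE 0.35, adjusted p = 0.00032). The astrocyte libraries held more Sall1, 84.5 to 129 CPM, and the part of astrocytes in its fall was not tested. Olfml3, a secreted matrix protein of microglia, fell by 1.09 (SE 0.13, adjusted p = 4.04e-05). Adgrg1, a receptor marking yolk-sac-derived microglia, fell by 2.17 (adjusted p = 0.00084) and Tgfbr1, a receptor of the cytokine that maintains microglia, by 0.41 (SE 0.071, adjusted p = 0.000632). P2ry12, the purinergic receptor of process movement, was at 48.8, 73.7, 73.4 and 66.6 CPM against 80.0, 103 and 126. It fell by 0.70 (SE 0.19, adjusted p = 0.0148), and was not called without knock-out replicate 1 (adjusted p = 0.101). Nor was P2ry12 called in males alone or with the replicate block (differences -0.53 and -0.68). The fractalkine receptor Cx3cr1, Gpr34 and Siglech were not called, with differences of -0.11, -0.29 and -1.81, and Csf1r (-0.27, adjusted p = 0.0741) was called lower without APOE33 replicate 6 (adjusted p = 0.0447). In these bulk libraries fewer cells of a type and less RNA per cell cannot be told apart.

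Of 25 transcription factors of myeloid cells, 8 fell (median -0.12; 3 in males alone and 5 without knock-out replicate 1). Besides Sall1 and its relative Sall3 (-2.21, SE 0.41, adjusted p = 0.00166), these were small falls: Nfkb1, an NF-kB subunit, at 159, 183, 178 and 176 CPM against 214, 222 and 228 (-0.36, SE 0.044, adjusted p = 4.57e-05), and Spi1, the master factor PU.1 of the lineage, at 329, 352, 334 and 333 CPM against 374, 389 and 403 (-0.22, SE 0.043, adjusted p = 0.00196). Both had knock-out libraries entirely below APOE33. Irf8, Runx1 and Mef2a were not called (-0.20, -0.10 and -0.0046).

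Most immediate early genes, which are transcribed within minutes of a stimulus and also during cell handling, were lower. All 26 had a negative difference, 17 were called (median -0.91), and in 12 the groups did not overlap; 5 were called in males alone, and 12 without knock-out replicate 1. Dusp1, a phosphatase that ends MAP kinase signalling (ENSMUSG00000024190.6, chromosome 17, 26505590 to 26562128), was at 4.77, 5.55, 6.15 and 6.44 CPM in knock-out. In APOE33 it was at 45.7, 47.6 and 47.5 CPM in replicates 1 to 3 and at 20.8, 16.6 and 16.2 in replicates 4 to 6, so the APOE33 libraries fell into 2 levels, both above the knock-out (-2.56, SE 0.39, adjusted p = 0.000421). Nr4a3, an orphan nuclear receptor, was at 0.332, 0.482, 0.441 and 0.507 CPM against 1.62, 2.69 and 3.75 (-2.61, SE 0.30, adjusted p = 2.99e-05). Klf4, a Krüppel-like factor, fell by 2.29 (SE 0.30, adjusted p = 8.89e-05), Fos, an AP-1 subunit, by 1.23 (SE 0.19, adjusted p = 0.00043), Jun by 0.54 (SE 0.12, adjusted p = 0.00379) and Myc by 0.85 (SE 0.15, adjusted p = 0.000752). Atf3 and Fosl2, at -0.034 each, were not called. TGACG, a core of the cyclic AMP response element, stood on either strand in 13 of 21 immediate early gene windows (61.9%), beside 17.8% of all windows and 29.5% of windows of genes tested.

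More chemokines and cytokines fell than rose. In the list of 28 chemokines and cytokines 15 fell and 2 rose (median -0.83); in 14 the knock-out libraries lay wholly below, and 6 fell in males alone. Cxcl2, a neutrophil chemokine, was at 1.22, 3.69, 3.26 and 3.03 CPM against 8.56, 18.9 and 31.5 (-2.79, SE 0.52, adjusted p = 0.00179). Ccl2, the monocyte chemokine, was at 0.697, 0.382, 0.562 and 0.703 CPM against 2.06, 2.86 and 5.91 (-2.40, SE 0.34, adjusted p = 0.000197). Both genes had all knock-out libraries below all APOE33 libraries. Ccl12 fell by 1.39 (SE 0.21, adjusted p = 0.000297), Ccl3 by 0.98 (SE 0.16, adjusted p = 0.000623), the growth factor Pdgfa by 0.75 (SE 0.066, adjusted p = 3.16e-06) and the cytokine Il1b by 1.61 (SE 0.37, adjusted p = 0.00664). Tnf was at 45.1, 37.3, 42.6 and 46.4 CPM against 43.7, 51.3 and 57.3 and was not called (-0.22, adjusted p = 0.208).

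Toll-like receptor, inflammasome and adaptor genes moved in both directions. Of 29 such genes 7 fell and 5 rose (median -0.082); 13 fell and 3 rose with library totals alone, 4 fell and 0 rose in males, and 4 fell without knock-out replicate 1. Ptgs2, the inducible cyclo-oxygenase of prostaglandin synthesis (ENSMUSG00000032487.8, chromosome 1, 150100031 to 150108227), was at 1.13, 0.804, 1.06 and 1.11 CPM against 6.84, 9.18 and 12.9. It was the largest fall among the genes eligible to be named (-3.16, SE 0.34, adjusted p = 3.26e-05). Nlrp3, the inflammasome sensor (ENSMUSG00000032691.14, chromosome 11, 59541568 to 59566956), was at 28.2, 33.8, 32.7 and 36.6 CPM against 66.2, 78.8 and 101 (-1.30, SE 0.13, adjusted p = 9.48e-06). Tlr2 fell by 0.77 (SE 0.087, adjusted p = 2.43e-05) and the endotoxin co-receptor Cd14 by 1.54 (SE 0.26, adjusted p = 0.000863), while Tlr4 and Myd88 were not called (-0.22 and -0.13), although Tlr4 was called lower without APOE33 replicate 2 (adjusted p = 0.0338).

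**Figure D4:**
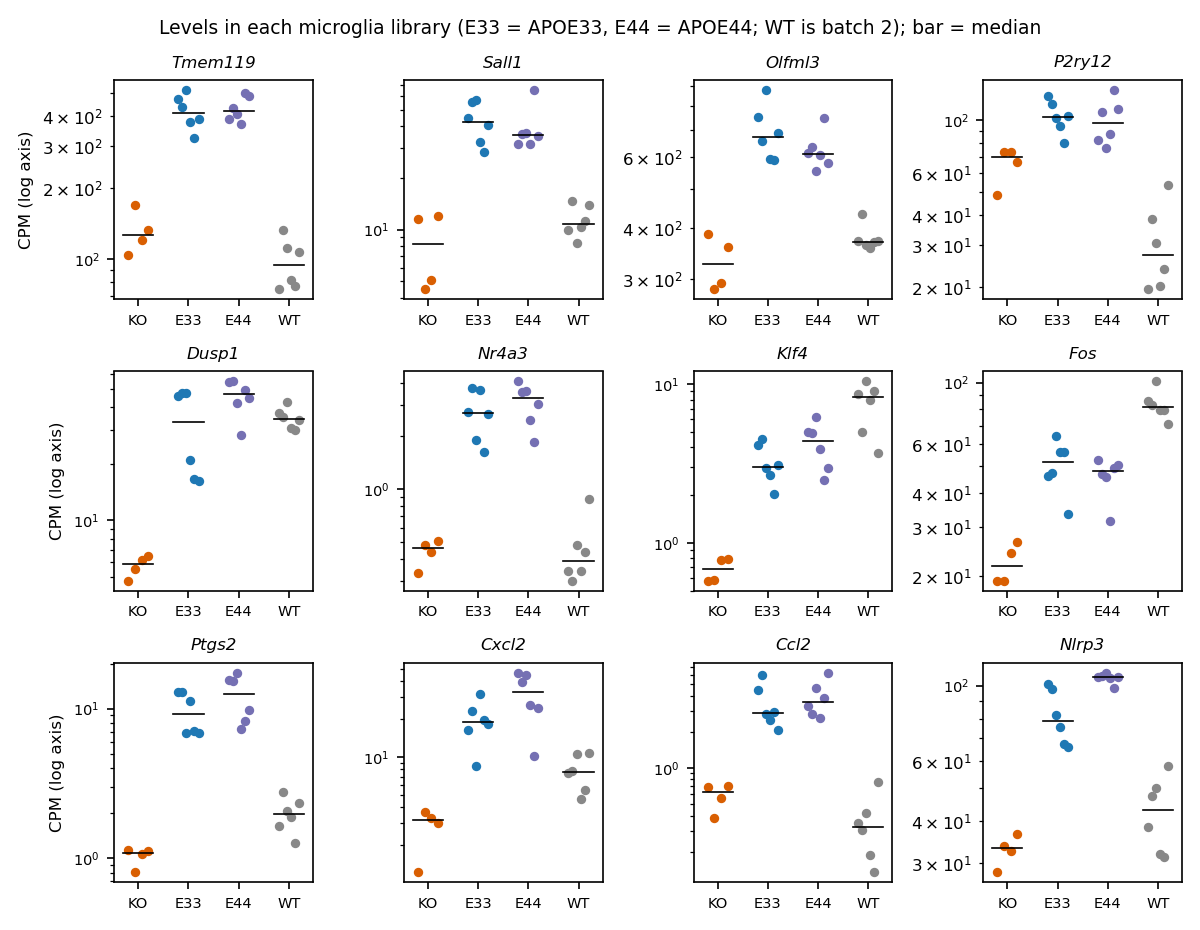
Each panel gives the CPM (log axis) of 1 gene in every microglia library of 4 genotypes, with a bar at the median; KO is knock-out, E33 APOE33, E44 APOE44 and WT wild type. In all 12 genes the knock-out points lie below the APOE33 points, and for Tmem119, Sall1, Olfml3, P2ry12, Nr4a3, Ptgs2, Ccl2 and Nlrp3 the wild-type points, which are of another batch, lie below the APOE33 points too.

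The levels in the other genotypes differed between these groups. Tmem119 was at 369 to 501 CPM in APOE44 and 74.7 to 133 in wild type, and Sall1 at 31.5 to 65.2 and 8.38 to 14.6, so for both genes the wild-type libraries lay near the knock-out. Nlrp3 was at 98.7 to 109 CPM in APOE44 and 31.4 to 58.2 in wild type. For Sqle, APOE44 was at 21.3 to 44.3 CPM and wild type at 29.1 to 81.1, so both lay below the knock-out libraries, as APOE33 did. Dusp1 was at 28.3 to 54.5 CPM in APOE44 and 30.3 to 42.5 in wild type, above all knock-out libraries. In knock-out against APOE44, 20 of 20 cholesterol enzymes were higher (median 1.52), 14 of 25 homeostatic genes lower and 2 higher (median -0.45), 21 of 26 immediate early genes lower (median -0.85) and 19 of 28 chemokines and cytokines lower and 1 higher (median -1.04).

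Genes of disease-associated microglia, the state described around plaques, moved in both directions. Of 28 genes 7 rose and 4 fell (median 0.14), and 3 rose and 1 fell in males alone. Besides Fabp5 and Gpnmb, Cd68, an endosomal protein of phagocytes, rose by 0.48 (SE 0.085, adjusted p = 0.000793). Csf1 (-0.88, SE 0.17, adjusted p = 0.00172) and Clec7a, the beta-glucan receptor (-0.38, adjusted p = 0.00242), fell. The sensor Trem2 was at 1362, 1136, 1175 and 1231 CPM against 1085, 1155 and 1342 and was not called (0.067, adjusted p = 0.579). Its partner Tyrobp, and Spp1, Itgax and Cst7, had differences of -0.15, 0.17, -0.089 and 0.18 and were not called either.

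The scavenger receptors Marco and Msr1 and the Fc receptor Fcgr2b rose. In the list of complement and phagocytosis 8 of 31 rose and 5 fell (median 0.12; 3 fell without knock-out replicate 2 or 3, and 2 in males alone). Marco, a scavenger receptor of bacteria and modified lipoproteins (ENSMUSG00000026390.7, chromosome 1, 120474538 to 120505024), was at 59.4, 71.2, 67.7 and 84.4 CPM against 4.11, 10.3 and 21.8. The highest APOE33 library lay far below the lowest knock-out library (2.82, SE 0.42, adjusted p = 0.000356). Fcgr2b, the inhibitory Fc receptor, was at 1445, 1376, 1517 and 1431 CPM against 702, 822 and 912 (0.83, SE 0.069, adjusted p = 2.3e-06). Complement C3 rose by 0.79 (SE 0.14, adjusted p = 0.00106), and the scavenger receptor Msr1 by 0.48 (adjusted p = 0.00205). C1qa, C1qb and C1qc, the subunits of the first complement component, were not called (-0.23, 0.014 and -0.073), although C1qa was called lower without knock-out replicate 1 (adjusted p = 0.0324). Elmo1, a scaffold of engulfment, fell by 0.32 (SE 0.048, adjusted p = 0.000267).

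Of 27 inhibitory and paired receptors 6 rose and 3 fell (median -0.017; 1 fell in males alone, and 5 fell by DESeq2). Pirb, a receptor that binds class I molecules (ENSMUSG00000058818.13, chromosome 7, 3711409 to 3720391), was at 63.6, 51.6, 59.7 and 58.5 CPM against 5.57, 8.30 and 14.2 (2.74, SE 0.27, adjusted p = 1.89e-05); it was at 14.9 to 32 CPM in APOE44 and 33.3 to 76.4 in wild type. Pirb belongs to a family of near-identical genes whose reads counting may divide, so its level is uncertain. Siglec1, a sialic acid receptor of macrophages, was at 582, 560, 545 and 530 CPM against 190, 260 and 357 (1.10, SE 0.16, adjusted p = 0.000208). Cd33, a sialic acid receptor linked to Alzheimer risk, fell by 0.56 (SE 0.086, adjusted p = 0.000309).

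The class I genes H2-K1 and H2-D1 rose. Of 21 presentation genes 7 rose and 1 fell (median 0.18), 2 rose in males alone, and the fall was of Cd74 (-0.56, adjusted p = 0.0446), named after its value was seen and not called without any of 8 libraries. H2-K1 was at 1525, 1562, 1549 and 1406 CPM against 875, 1098 and 1214 (0.48, SE 0.085, adjusted p = 0.000765) and H2-D1 rose by 0.50 (SE 0.086, adjusted p = 0.000624); both are near-identical family members and share that uncertainty. Nlrc5, the class I transactivator, rose by 0.51 (SE 0.091, adjusted p = 0.000901). In the type I interferon list 4 of 39 rose (10.3%, median 0.018). The count was 0 without APOE33 replicate 3 and at most 2 without knock-out replicate 1, 2 or 3 or APOE33 replicate 1 or 6. Ifit1, Ifit3, Isg15 and Irf7 were spread widely within APOE33 (Isg15 at 3.03, 7.55 and 8.23 CPM) and were not called (-0.51, -0.075, -0.0019 and -0.28).

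Most measured markers of macrophages at the brain's borders rose. Of 10 markers 6 rose (median 0.47; 4 without APOE33 replicate 3), and the sum of the 14 listed was 1708 to 1887 CPM in knock-out against 1091 to 1552 in APOE33, 1151 to 1467 in APOE44 and 1425 to 1657 in wild type. Mrc1, the mannose receptor, was at 286, 386, 381 and 296 CPM against 107, 117 and 190 (1.44, SE 0.26, adjusted p = 0.0013). Cd38, a NAD-consuming enzyme, was at 36.6, 96.7, 69.6 and 45.2 CPM against 8.12, 15.0 and 20.6 (2.11, SE 0.44, adjusted p = 0.00354), and Cbr2 rose by 2.69 (SE 0.50, adjusted p = 0.00116). No library overlapped for these genes. The monocyte genes Ccr2 and Clec12a were not called (-0.057 and 0.10), and Plac8 was at 0 in every knock-out and every APOE33 library. The part of such cells in the rises of Mrc1 or Marco was not tested.

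Genes of the integrated stress response, which adjusts amino acid supply, had more falls than rises. Of 26 unfolded protein and stress genes 11 fell and 4 rose (median -0.094); 4 fell and 0 rose in males alone, and 7 fell without knock-out replicate 3. Atf4, its central factor, was at 91.0, 84.9, 95.9 and 91.4 CPM against 128, 146 and 167 (-0.70, SE 0.11, adjusted p = 0.000365). Trib3, an Atf4 target, was at 2.26, 2.95, 2.17 and 2.81 CPM against 5.14, 8.01 and 11.3 (-1.83, SE 0.30, adjusted p = 0.000609), and the serine synthesis gene Psat1 fell by 0.92 (SE 0.13, adjusted p = 0.000193). Neither overlapped. Herpud1, of protein disposal from the endoplasmic reticulum, fell by 0.78 (SE 0.10, adjusted p = 9.22e-05), while the chaperone Hspa5 and the factor Xbp1 were not called (0.10 and -0.074).

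The other lists are given together. Of 23 NRF2 and metallothionein genes 5 rose and 1 fell (3 rose without knock-out replicate 1, and 0 in males alone); Txn1, thioredoxin, rose by 0.34 (SE 0.066, adjusted p = 0.00165) and Hmox1 and Nqo1 were not called (0.43 and 0.25). Of 35 cell cycle genes 1 rose and 2 fell, although 30 of 35 differences were negative (median -0.60). The cell cycle median was -0.14 without knock-out replicate 1 and 0.044 in males alone, where 21 of 35 differences were positive and 0 genes were called. With 1 library left out 0 or 1 rose and 1 to 4 fell, 1 without knock-out replicate 1 or 4 or APOE33 replicate 3 and 4 without knock-out replicate 2, and 0 rose without knock-out replicate 1, 3 or 4 or APOE33 replicate 1, 2, 3 or 4. Of 44 collagens and matrix glycoproteins 5 rose and 4 fell, Emilin2 by 1.15 (SE 0.16, adjusted p = 0.00016) and Igfbp5 by -1.88 (SE 0.34, adjusted p = 0.00148); with 1 library left out 3 to 7 rose and 2 to 4 fell, 7 and 2 without APOE33 replicate 3. Of 39 proteoglycans and matrix regulators 5 rose and 2 fell (4 fell without knock-out replicate 1, 1 without knock-out replicate 3 or APOE33 replicate 3, and 1 rose and 0 fell in males alone), and the membrane-bound collagenase Mmp14 was at 243, 404, 356 and 326 CPM against 123, 150 and 167 (1.24, SE 0.14, adjusted p = 3.99e-05). Among 32 Alzheimer risk genes 3 rose and 8 fell (1 and 1 in males alone, and 5 fell without knock-out replicate 1, 3 or 4 or APOE33 replicate 3); App, the amyloid precursor gene, was at 863, 740, 817 and 822 CPM against 486, 560 and 667 (0.52, SE 0.079, adjusted p = 0.00026), and Bin1 fell by 0.39 (SE 0.089, adjusted p = 0.00517). Of 15 genes of the mitochondrial genome 2 rose and 1 fell; 0 fell without knock-out replicate 1, 2 or 3 or APOE33 replicate 2, 4 or 5, 2 fell without APOE33 replicate 6, and 1 rose and 4 fell with library totals only.

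Rises and falls were ranked among called genes with a mean log2 CPM of at least 1. Predicted-gene and clone names, Xist, Tsix and genes of chromosome Y were left out. The 10 largest rises were Lrmda, Apoc4, Marco, Pirb, Cgnl1, Cd5l, Cd93, Snhg11, Gfra4 and Gsta3, at 3.53 to 2.49. Cd5l, an inhibitor of fatty acid synthase secreted by macrophages, was at 395, 111, 161 and 202 CPM against 27.0, 31.6 and 81.8 (2.64, SE 0.41, adjusted p = 0.00046). Cd93, a receptor of clearance, was at 120, 123, 131 and 118 CPM against 9.87, 24.2 and 45.9, the knock-out libraries being close together and the APOE33 libraries not (2.59, SE 0.31, adjusted p = 7.14e-05). Gsta3, a glutathione transferase, was called with an adjusted p of 0.0113 and not without knock-out replicate 1 (0.0794). Nor was Gsta3 called in males alone or with the replicate block (differences 2.91 and 2.57). The 10 largest falls were Ptgs2, Cxcl2, Peg10, Gem, Lag3, Dmpk, Dusp1, Fscn1, Camk2b and Sall1, at -3.16 to -2.42. Fscn1, an actin-bundling protein, was at 16, 6.91, 8.19 and 20.4 CPM against 57.1, 76.0 and 94.7 (-2.55, SE 0.32, adjusted p = 0.000122). Peg10, an imprinted gene, fell by 2.66 (SE 0.27, adjusted p = 1.99e-05), with 0.923 to 1.31 CPM in knock-out, 5.59 to 8.90 in APOE33 and a mean of 27.5 in APOE44. Lag3, an immune checkpoint receptor, was the only one of the 10 whose groups met (highest knock-out and lowest APOE33 library both at 1.43 CPM). Its adjusted p of 0.012 rose to 0.0515 and 0.0531 without knock-out replicate 1 or APOE33 replicate 3. Nor was Lag3 called in males alone or with the replicate block (differences -2.33 and -2.46).

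Among the genes eligible to be named, Wdfy1 and Lrmda had the smallest adjusted p values. Wdfy1, an endosomal adaptor of Toll-like receptor signalling (ENSMUSG00000073643.11, chromosome 1, 79702262 to 79776143), was at 12.9, 12.4, 13.8 and 13.5 CPM in knock-out and 54.0, 55.8 and 57.5 in APOE33. The groups did not overlap. APOE44 libraries were at 13.1 to 15.7 CPM, near the knock-out, and wild type at 53.1 to 56.8, near APOE33. The difference was -2.08 (SE 0.054, adjusted p = 7.78e-13) in microglia and -2 in astrocytes. Lrmda (ENSMUSG00000063458.13, chromosome 14, 22019712 to 23056085) was at 21.6, 19.7, 20.5 and 19.6 CPM against 1.32, 1.90 and 2.11, with APOE44 at 15.3 to 17.0 and wild type at 1.38 to 1.86 (3.53, SE 0.10, adjusted p = 1.47e-12). Eps8l1, an actin regulator (ENSMUSG00000006154.13, chromosome 7, 4460674 to 4480487) named after its values were seen because its mean lay under the limit for named genes (log2 CPM of 1), was at 5.26, 2.78, 2.16 and 3.52 CPM in knock-out, 0.0271 to 0.0831 in APOE33, 6.48 to 12.7 in APOE44 and 3.74 to 6.43 in wild type, so APOE33 alone was low (6.41, SE 0.32, adjusted p = 1.52e-08). Myadm, a membrane protein of myeloid cells (ENSMUSG00000068566.12, chromosome 7, 3289080 to 3300442), was at 111, 105, 116 and 109 CPM against 44.1, 52.6 and 59.0, with APOE44 at 77.1 to 93.1 and wild type at 97.9 to 125 (1.05, SE 0.071, adjusted p = 2.91e-07). Above that limit, with the same names left out, the 10 of smallest adjusted p were Wdfy1, Lrmda, Myadm, Snhg11, Ets1, Inpp5j, Alkbh6, Adam19, Cd200r4 and St3gal6. The factor Ets1 fell by 0.96 (SE 0.069, adjusted p = 6.67e-07) and the sialyltransferase St3gal6 by 2.41 (SE 0.17, adjusted p = 1.25e-06).

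Genes near Apoe were described by distance, with no test. Within 1 Mb of Apoe, Apoe aside, 16 of 55 tested genes (29.1%) were called, 7 higher and 9 lower; from 1 to 5 Mb 23.2% of 56, from 5 to 20 Mb 24.3% of 362, further along chromosome 7 23% of 904 and on other chromosomes 22.7% of 15765 were called. Apoc4, an apolipoprotein gene 0.0146 Mb away (ENSMUSG00000074336.5, 19678083 to 19681479), was at 6.95, 11.8, 8.37 and 7.62 CPM against 0.462, 1.02 and 2.23 (2.85, SE 0.51, adjusted p = 0.00125). Apoc1 was at 48.0, 20.1, 16.4 and 22.1 CPM against 8.93, 31.1 and 198, overlapped fully and was not called. Dmpk, the myotonic dystrophy kinase gene (ENSMUSG00000030409.15, 19083849 to 19093821), was at 1.07, 1.24, 0.742 and 1.5 CPM against 5.30, 7.10 and 7.79 (-2.56, SE 0.22, adjusted p = 2.74e-06). Its neighbour Dmwd (ENSMUSG00000030410.16, 19076227 to 19082776) fell by 1.70 (SE 0.22, adjusted p = 7.43e-05). Mill2, a class I-like gene 0.831 Mb away, rose by 2.18 (SE 0.22, adjusted p = 9.52e-06). Nectin2, an adhesion molecule 0.0175 Mb away, fell by 0.79 (SE 0.14, adjusted p = 0.0011). Tomm40, the mitochondrial import pore gene, was not called (0.032). Further off, Myadm, Pirb and Eps8l1, whose rises are given above, lie near one another on chromosome 7, 5 to 20 Mb from Apoe. The part of position in their rises was not tested. Whether counting used strand is not given in the sources used here, so reads of neighbouring genes such as Apoc4, Dmpk and Dmwd may not be fully told apart.

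The same contrast was fitted in astrocytes, and the difference between the cell types was tested in 32 libraries. Same-numbered microglia and astrocyte libraries of a genotype had the same sex. The labels do not say whether they came from the same animals, and the test treated all libraries as independent. The astrocyte library titled APOE33 replicate 1 carries a wild-type genotype tag; it was grouped by its title, and its mouse Apoe level of 24.7 CPM lay within the 23.4 to 36.7 CPM of the other libraries of that title. Of 21647 genes, the knock-out effect was more positive in microglia in 1338 (6.18%) and more negative in 1417 (6.55%); within astrocytes 1574 genes were higher (7.27%) and 1064 lower (4.92%) in knock-out. Of the 3899 genes called in microglia, the difference between the cell types was called in 1706. Both contrasts use the same knock-out and APOE33 microglia libraries, which raises that share. All 20 cholesterol enzymes had a more positive effect in microglia, each called, with a median difference of 1.84; in astrocytes 4 fell and all 20 differences were negative (median -0.33). Sqle in astrocytes was at 67.4 to 85.2 CPM in knock-out and 109 to 116 in APOE33, the opposite order to microglia (difference between cell types 2.36, adjusted p = 0.000264). Insig1 (1.64, adjusted p = 1.55e-05) and Fads1 (0.93, adjusted p = 4.71e-07) differed in the same direction. For homeostatic genes the effect was more negative in microglia in 12 of 25, with Tmem119 at 0.88 to 6.60 CPM in astrocytes. Within astrocytes 6 of the 25 rose and 0 fell (median 0.37). All 20 microglia and macrophage markers were positive there, 7 called higher and 0 lower (median 0.72). The part of microglia within the astrocyte libraries in these differences was not tested. Immediate early genes fell in both: 12 of 26 fell and 1 rose in astrocytes, Fos by 3.22 (adjusted p = 2.79e-05), a larger fall than in microglia (difference 2.01, adjusted p = 0.0184), and the difference between cell types was called in 2 genes upward and 3 downward. Without the astrocyte library of mixed labels, the difference was called upward in 1257 genes and downward in 1411, astrocytes had 1378 genes higher and 854 lower, all 20 cholesterol enzymes were still called more positive in microglia, 12 homeostatic genes more negative, and 9 immediate early genes fell in astrocytes.

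**Figure D5:**
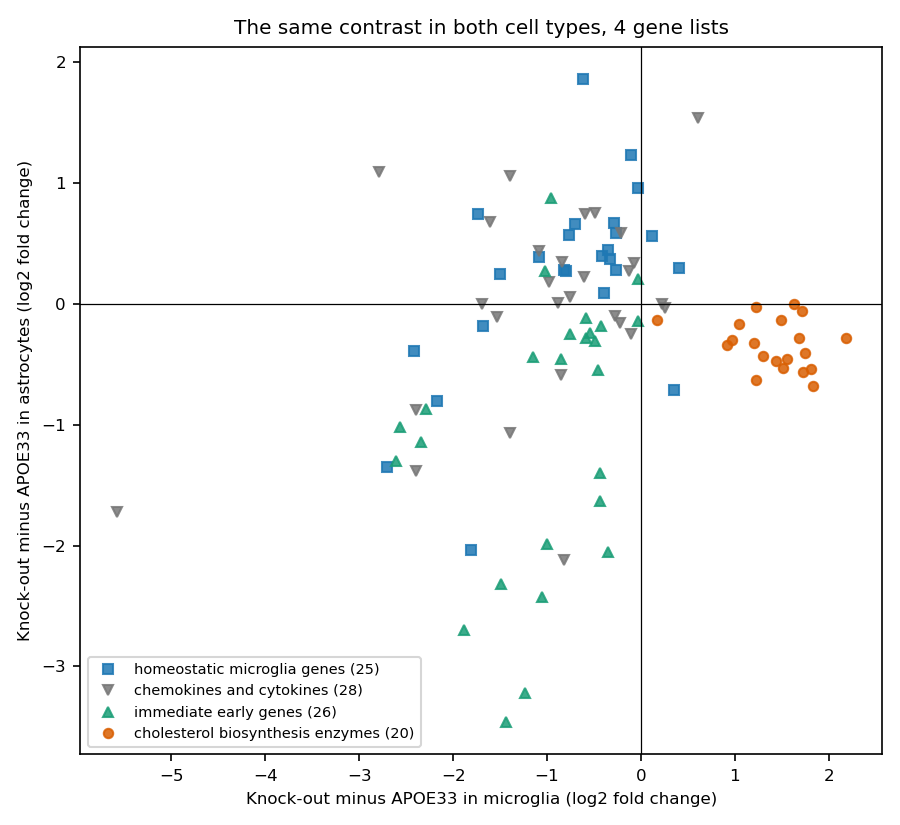
Points are genes of 4 lists, with the log2 fold change of knock-out over APOE33 in microglia on the x axis and in astrocytes on the y axis. The cholesterol enzymes (orange circles) lie to the right of 0 and below 0 on the y axis, while most immediate early genes (green triangles) lie below 0 on both axes.

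Myadm, Dmpk, Map3k5, Hivep2, Mvd, Mgst1, Smpdl3a and Asap3 had some of the lowest adjusted p values for the difference between cell types; Mvd, Mgst1, Smpdl3a and Asap3 shared theirs (4.71e-07) with Fads1 and Mill2. Myadm rose by 1.05 in microglia and fell by 0.84 in astrocytes (difference 1.91, adjusted p = 9.47e-12). Map3k5, a stress-activated kinase, fell by 0.49 in microglia and rose by 0.80 in astrocytes (difference -1.28, adjusted p = 1.32e-08), and Asap3 by -0.63 and 0.73 (difference -1.34, adjusted p = 4.71e-07). Mgst1, a membrane-bound glutathione transferase, was at 183, 184, 183 and 181 CPM in knock-out microglia against 60.2, 86.0 and 107 and rose by 1.13 (SE 0.13, adjusted p = 4.04e-05); in astrocytes the difference was -0.36. Genes called in the same direction in both cell types included Wdfy1, Lrmda (1.91 in astrocytes, adjusted p = 0.00103), Cd93 (2.21, adjusted p = 5.31e-05) and Fcgr2b (1.33, adjusted p = 0.000393), although the difference between the cell types was called for Lrmda (1.63, adjusted p = 0.0213). For Cd93 and Fcgr2b, the part of microglia within the astrocyte libraries was not tested.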

How the data were processed

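The deposited table holds a raw count per mouse gene and library, made by the authors; per the submitters' processing notes STAR 2.5.3a, featureCounts, edgeR 3.26.8 and DESeq2 3.14 were used, with hg38 the only build named, although the identifiers are mouse. Of the counts from 1 to 9, 68.6% are even, so a count may not be 1 fragment. Stable identifiers were matched to GENCODE M21 (GRCm38; 54079 of 54146), which gave symbols and coordinates.

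Genes passing filterByExpr were tested with edgeR 4.0.16 (R 4.3.3): TMM scaling, robust quasi-likelihood fit over the 16 batch 1 microglia libraries with genotype and sex, Benjamini-Hochberg adjustment, calls at an adjusted p under 0.05. A second fit over 32 batch 1 libraries of both cell types tested the interaction. Standard errors are the fold change over the root of F; CPM were scaled by TMM over 22 microglia libraries. At these depths 1 CPM is 89.0 to 121 counts. The code was tested on simulated data. Same-numbered replicates were not paired by the labels.

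Named genes were Apoe, the 10 largest rises and falls (mean log2 CPM of at least 1), the 10 smallest adjusted p, per list the called members of smallest adjusted p (at most 4), the 8 smallest of the interaction, and called genes near Apoe; other members were named for their role after their values were seen. The rankings kept called genes and left out predicted-gene and clone names, Xist, Tsix and chromosome Y. Members and lists were chosen with earlier results of these data known. Alternatives were RLE scaling, library totals only, no filter, DESeq2 1.42.0, knock-out and APOE33 libraries only, no sex term, males only, a replicate block and each library left out. Promoters are from RefSeq. Some members are counted in the lists but not reported here one by one.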

Additional observations from a re-analysis of the deposited data

Results flagged for a closer look

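A library stood apart from its own group, by the gap to its nearest neighbour as a share of the group's range, in 20 of 338 gene and group pairs looked at among the 169 genes named with values; chance marks about 1 in 20. A gap that is large beside the range can still be small in level. APOE33 replicate 1 was above the other libraries of its group in Ccr2 (6.43 CPM against 2.88 to 4.04). APOE33 replicate 2 was above the other libraries of its group in Eps8l1 (0.0831 CPM against 0.0271 to 0.0425). APOE33 replicate 3 was above the other libraries of its group in Apoc1 (198 CPM), Apoe (68.9 CPM) and C1qa (4837 CPM against 4054 to 4297). The same library was above the others in C1qc (3883 CPM), Trem2 (1342 CPM against 1085 to 1160) and Tyrobp (1742 CPM). APOE33 replicate 5 was above the other libraries of its group in Gsta3 (8.65 CPM) and Lss (36.5 CPM). APOE33 replicate 6 was below the other libraries of its group in H2-K1 (875 CPM against 1092 to 1214). Knock-out replicate 1 was above the other libraries of its group in Fasn (238 CPM against 197 to 202). Knock-out replicate 2 was below the others in Cd200r4 (46.3 CPM against 55.8 to 57.4), Hspa5 (747 against 847 to 864) and Ldha (409 against 471 to 480). Knock-out replicate 3 was below the other libraries of its group in Vldlr (2.23 CPM against 2.94 to 3.08). Knock-out replicate 4 was above the others in Alkbh6 (8.03 CPM against 6.77 to 6.88) and Camk2b (2.42 CPM against 1 to 1.22). Knock-out replicate 4 was below the others in Ets1 (21.3 CPM against 22.7 to 23) and Isg15 (4.14 CPM against 6.24 to 6.6).

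The knock-out effect (log2, knock-out minus APOE33) was compared between microglia and astrocytes with edgeR's quasi-likelihood test. It differed at an adjusted p under 0.05 in 98 of the 169 genes named with values. Over all 21647 genes the difference was called upward in 6.18% and downward in 6.55%. The 169 were picked in part by the microglia contrast and by this same test, which raises their share. The values that follow are the effect in microglia minus that in astrocytes. Within astrocytes all 20 microglia and macrophage markers had a positive difference (median 0.72). For genes of myeloid cells, the part of microglia within the astrocyte libraries was not tested. Among the cholesterol enzymes the difference was 1.88 for Hmgcs1, 2.06 for Mvd, 2.31 for Idi1, 2.52 for Fdps, 2.36 for Sqle, 1.80 for Lss, 2.04 for Cyp51, 1.27 for Tm7sf2, 1.92 for Msmo1, 1.76 for Nsdhl, 0.33 for Ebp and 1.64 for Sc5d. Among sterol uptake and its regulators the difference was 1.33 for Lrp8, 0.40 for Scarb1, -1.32 for Mylip, 0.90 for Srebf2, 1.64 for Insig1 and -0.29 for Insig2. Among the liver X receptor and efflux list the difference was 1.54 for Nr1h3, 1.26 for Smpdl3a, -2.08 for Ch25h and 0.59 for Soat1. Among fatty acid genes the difference was 0.63 for Acly, 0.78 for Fasn, 0.33 for Elovl5, 0.93 for Fads1, 2.49 for Fads2 and 1.11 for Fabp5. Among glycolysis genes the difference was 0.50 for Slc2a1, -1.44 for Slc2a3, 1.83 for Aldoc, 0.47 for Tpi1, 0.72 for Pgam1 and 0.60 for Ldha. Among the lysosomal list the difference was 0.63 for Npc1 and 0.44 for Lamp1. Among homeostatic genes the difference was -1.34 for P2ry12, -2.46 for Tmem119, -2.01 for Sall1, -1.47 for Olfml3, -0.79 for Tgfbr1, -0.46 for Bin1 and -1.36 for Adgrg1. Among the myeloid transcription factors the difference was -1.29 for Spi1, -2.19 for Sall3 and -0.32 for Nfkb1. Among immediate early genes the difference was 2.01 for Fos, -1.29 for Nr4a3 and -1.40 for Klf4. Among chemokines and cytokines the difference was -1.14 for Ccl3, -2.43 for Ccl12, -3.89 for Cxcl2, -0.87 for Csf1 and -0.79 for Pdgfa. Among the Toll-like receptor list the difference was -1.46 for Tlr2, -2.09 for Cd14, -0.39 for Myd88, -1.95 for Nlrp3 and -3.22 for Ptgs2. Among stress response genes the difference was -0.46 for Atf4, -1.71 for Trib3 and -0.56 for Herpud1. Among genes outside those lists the difference was -1.20 for Adam19, -0.58 for Alkbh6, 0.37 for App, -1.34 for Asap3, 0.87 for C3, -1.26 for Camk2b, 1.80 for Cbr2, -1.55 for Cd33, 1.78 for Cd38, 2.5 for Cd5l, -1.88 for Cd74, 2.76 for Cgnl1, -1.58 for Clec12a and -3.26 for Dmpk. Among further genes outside those lists the difference was -1.52 for Dmwd, 2.99 for Eps8l1, -0.98 for Ets1, -2.46 for Fscn1, -1.65 for Gem, -0.68 for Glul, 3.33 for Gsta3, -1.40 for Hivep2, -1.96 for Igfbp5, 2.38 for Inpp5j, -2.25 for Lag3, 1.63 for Lrmda, -1.28 for Map3k5 and 1.51 for Mgst1. Among further genes outside those lists the difference was 2.24 for Mill2, 1.33 for Mmp14, 1.91 for Myadm, -0.95 for Nectin2, -1.94 for Peg10, -1.18 for Spp1, -1.74 for St3gal6 and 0.71 for Txn1. Without the astrocyte library titled APOE33 replicate 1 but tagged wild type, the difference was no longer called for C3 (adjusted p = 0.0668) and Cbr2 (adjusted p = 0.0612).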

How the results depend on the processing

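The count of 3899 called genes was 3895 with RLE scaling, 4298 with library totals only (1284 higher and 3014 lower), 3081 without a filter, 4405 with DESeq2, 2987 with knock-out and APOE33 libraries only and 4129 without the sex term. It was 1068 in males alone, where 5 libraries of the 2 genotypes remain, and 2724 to 3855 with 1 library left out. The replicate block gave 2714; the labels do not pair same-numbered libraries, and the correlations of their deviations from the group means were -0.2, -0.17, 0.117 and -0.149. The 2755 genes that differed between cell types became 2794, 2141 and 3739 with RLE scaling, no filter and DESeq2, 2416 with the replicate block and 2074 to 2947 with 1 library left out. With 1 library left out, 18 to 20 cholesterol enzymes were called higher, and 12 to 17 homeostatic genes, 12 to 15 chemokines and cytokines and 12 to 22 immediate early genes lower. In males alone these lower counts were 4, 6 and 5, and with the replicate block 10, 14 and 13; the cause beyond the smaller number of libraries was not tested. Of 123 genes named and called, 95 were called in the same direction under every alternative run. No gene named changed direction while called. Many of these genes were picked for a small adjusted p or a large difference in the same libraries. Over all 3899 called genes, 1032 were called again in males alone. Sex is unevenly spread, with 1 female in the knock-out, and 1 CPM is 89.0 to 121 counts, so values far under 1 CPM rest on few reads.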

Other observations

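Some gene families not set up as lists had most members higher; they were chosen after their values were seen and carry no test of their own. Of 19 measured glutathione transferases, which couple glutathione to reactive lipids and other electrophiles, 12 were higher in knock-out than in APOE33 microglia, 18 differences were positive and the median was 0.69 (0.62 with library totals only), with Mgst1 at 1.13. In astrocytes 2 of the 19 fell (median -0.06), and the difference between the cell types was called in 9, all positive. The Gstm members are near-identical in part, so their single values are uncertain. All 3 measured genes of the Cd200 receptor family (Cd200r1, Cd200r2 and Cd200r4) were higher (0.56 to 1.76, median 1.10). Cd200r1 is also counted in the list of inhibitory and paired receptors.

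Cytosolic ribosomal protein genes showed small differences: 24 of 77 were higher, 72 were positive and the median was 0.16, but with library totals only 5 were higher and the median was 0.092. For 93 respiratory chain genes the balance moved with the scaling, with 15 higher and 3 lower (median 0.072) against 7 and 6 (median 0.0014) with library totals only. Within the APOE33 microglia, replicates 1 to 3 and 4 to 6 stood at different levels in Dusp1 (45.7 to 47.6 CPM and 16.2 to 20.8) and in Sqle (14.5 to 20.2 and 35.7 to 62.4), in opposite order.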
